A study of Homo sapiens with 12 samples.

Results

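The 10 genes described here encode actins and the proteins that bind actin filaments in contractile cells: ACTB, ACTG1, ACTA2, ACTG2, ACTBL2, TAGLN, CNN1, TPM1, TPM2 and MYL9. They were taken by symbol from the deposited count tables, in which each of the 10 symbols has its own row among 58302 genes. RNA came from H1299 (named NCI-H1299 in the labels) and H1703, established human lung cancer lines that the labels call epithelial. Each line was given SAHA (vorinostat, an inhibitor of zinc-dependent histone deacetylases) or the DMSO vehicle alone for 24 h, with 3 libraries in each of the 4 groups. The vehicle was 0.1% DMSO, and the protocol lists SAHA at 0, 2.5, 10 or 40 µM without tying a dose to these libraries. No allele or transgene is named, so each line is compared with itself under vehicle. The labels number the libraries of a group and tag the number as a batch, but do not say that they came from separate cultures. The p-values below therefore reflect only how these libraries vary, and that variation may be technical.

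Actin monomers assemble into filaments that give a cell its shape and, with myosin, its tension. ACTB and ACTG1 encode the cytoplasmic actins of nearly every cell, ACTA2 and ACTG2 the smooth-muscle actins, and ACTBL2 a close relative of the cytoplasmic actins that is normally scarce. Tropomyosins (TPM1, TPM2) lie along the filament and govern the access of myosin, MYL9 is a regulatory light chain of non-muscle and smooth-muscle myosin, and TAGLN (transgelin) and CNN1 (calponin) bind filaments and mark contractile smooth muscle. Many of these genes are textbook targets of serum response factor (SRF) and its actin-sensing cofactors MRTFA and MRTFB, which act through the CArG box, a motif in their promoters.

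The 250 bases before the RefSeq transcription start (GRCh38.p14) are given for 4 members, none of which was called lower with SAHA. They are ACTBL2 and CNN1, which were nearly silent under DMSO in H1299 and rose there with SAHA, ACTG1, which rose less, and ACTG2, which stayed at 0 to 5 counts throughout. Capitals mark 4 motifs searched on both strands: the CArG box in the exact form CCWWWWWWGG (W is A or T), the TATA box in the form TATAAA, the CCAAT box (bound by NF-Y) and the GC box GGGCGG (bound by the Sp1 family).
ACTBL2, chr5:57482812-57483061, minus strand: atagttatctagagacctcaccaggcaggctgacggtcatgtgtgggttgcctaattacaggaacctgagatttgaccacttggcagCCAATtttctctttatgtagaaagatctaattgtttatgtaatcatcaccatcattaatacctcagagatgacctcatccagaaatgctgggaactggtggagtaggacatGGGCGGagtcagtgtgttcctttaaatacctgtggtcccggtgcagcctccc
CNN1, chr19:11538601-11538850, plus strand: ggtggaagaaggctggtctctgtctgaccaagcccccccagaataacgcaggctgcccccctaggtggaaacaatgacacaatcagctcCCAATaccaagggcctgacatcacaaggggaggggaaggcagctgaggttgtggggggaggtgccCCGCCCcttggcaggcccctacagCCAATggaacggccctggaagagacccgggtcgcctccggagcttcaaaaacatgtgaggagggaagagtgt
ACTG1, chr17:81512800-81513049, minus strand: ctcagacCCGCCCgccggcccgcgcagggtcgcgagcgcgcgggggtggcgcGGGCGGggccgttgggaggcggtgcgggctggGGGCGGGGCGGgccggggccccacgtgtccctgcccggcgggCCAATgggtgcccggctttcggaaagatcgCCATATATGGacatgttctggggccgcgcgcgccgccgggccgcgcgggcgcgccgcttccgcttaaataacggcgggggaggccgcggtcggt
ACTG2, chr2:73892758-73893007, plus strand: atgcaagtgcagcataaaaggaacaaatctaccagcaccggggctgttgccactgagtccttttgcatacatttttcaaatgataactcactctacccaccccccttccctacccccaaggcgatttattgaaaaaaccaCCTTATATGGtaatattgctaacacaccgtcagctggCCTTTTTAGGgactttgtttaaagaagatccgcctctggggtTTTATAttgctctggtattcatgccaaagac
A CArG box was found 1 time in the ACTG1 window, 94 to 85 bases before the start, and 2 times in the ACTG2 window, 110 to 101 and 73 to 64 bases before it. The ACTBL2 and CNN1 windows held no match to the CArG box. They held CCAAT 1 and 2 times and GGGCGG 1 time each. Over all 35116 RefSeq promoter windows of this length, 1.16% held a CArG box, 10.72% TATAAA, 32.01% CCAAT and 42.64% GGGCGG. Some GGGCGG matches in the ACTG1 window overlap each other. A match describes the letters and is not evidence of binding. The windows of ACTA2, TPM1 and TPM2 held no exact CArG box match either. Near matches were not counted. An ACTA2 window (chr10:88952774-88953023) holds ccctatatgg and ccttgtttgg, each with a base other than A or T between CC and GG. No exact match therefore does not mean that a promoter lacks a CArG element.

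The count columns summed to between 14.4M and 19.4M per library, and the 10 genes took 0.390% to 0.778% of them. Some features of the libraries moved with treatment in both lines. Mitochondrially encoded genes took 1.96% to 2.22% of counts in H1299 under DMSO and 4.0% to 4.23% with SAHA, against 5.44% to 6.27% and 8.77% to 10.9% in H1703, and genes with 10 or more counts numbered 15895 to 16339 under DMSO and 17209 to 17590 with SAHA. Their part in the results below was not tested. Of the epithelial markers, the keratins KRT8 and KRT18 were present in both lines (210 ± 3.64 and 383 ± 8.99 counts-per-million, CPM, in H1299 under DMSO, mean ± SD of 3 libraries), whereas the cadherin CDH1 was at 0 counts and EPCAM at 0.235 ± 0.205 CPM in H1299. In H1703 CDH1 stood at 92.3 ± 17.2 CPM under DMSO and EPCAM at 2.81 ± 0.766.

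SAHA changed the actin and contractile genes differently in the 2 lines. In H1299, 6 of the 9 tested members rose (ACTG1, ACTBL2, TAGLN, CNN1, TPM1 and MYL9), 2 fell (ACTB and TPM2) and ACTA2 did not pass. In H1703 ACTG1 and ACTBL2 rose, ACTB, TAGLN and TPM2 fell, and ACTA2, CNN1, TPM1 and MYL9 did not pass. Calls are edgeR quasi-likelihood tests at a Benjamini-Hochberg adjusted p below 0.05 over all genes tested. That rule called 33.3% of 17277 genes higher and 30.4% lower in H1299, and 34.7% of 17273 genes higher and 32.6% lower in H1703. In either direction it called 63.8% and 67.4%, so most expressed genes moved and a call alone sets none of these genes apart. ACTG2 was too low to test. ACTBL2 in both lines and CNN1 in H1299 passed the filter on low counts only through their SAHA libraries, so the member counts are a description. The median log2 fold change of the 9 tested members was 0.83 in H1299 (also 0.83 with ACTBL2 at its lower bound) and -0.44 in H1703, and that of all genes tested was 0.02 in each.

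**Figure D1:**
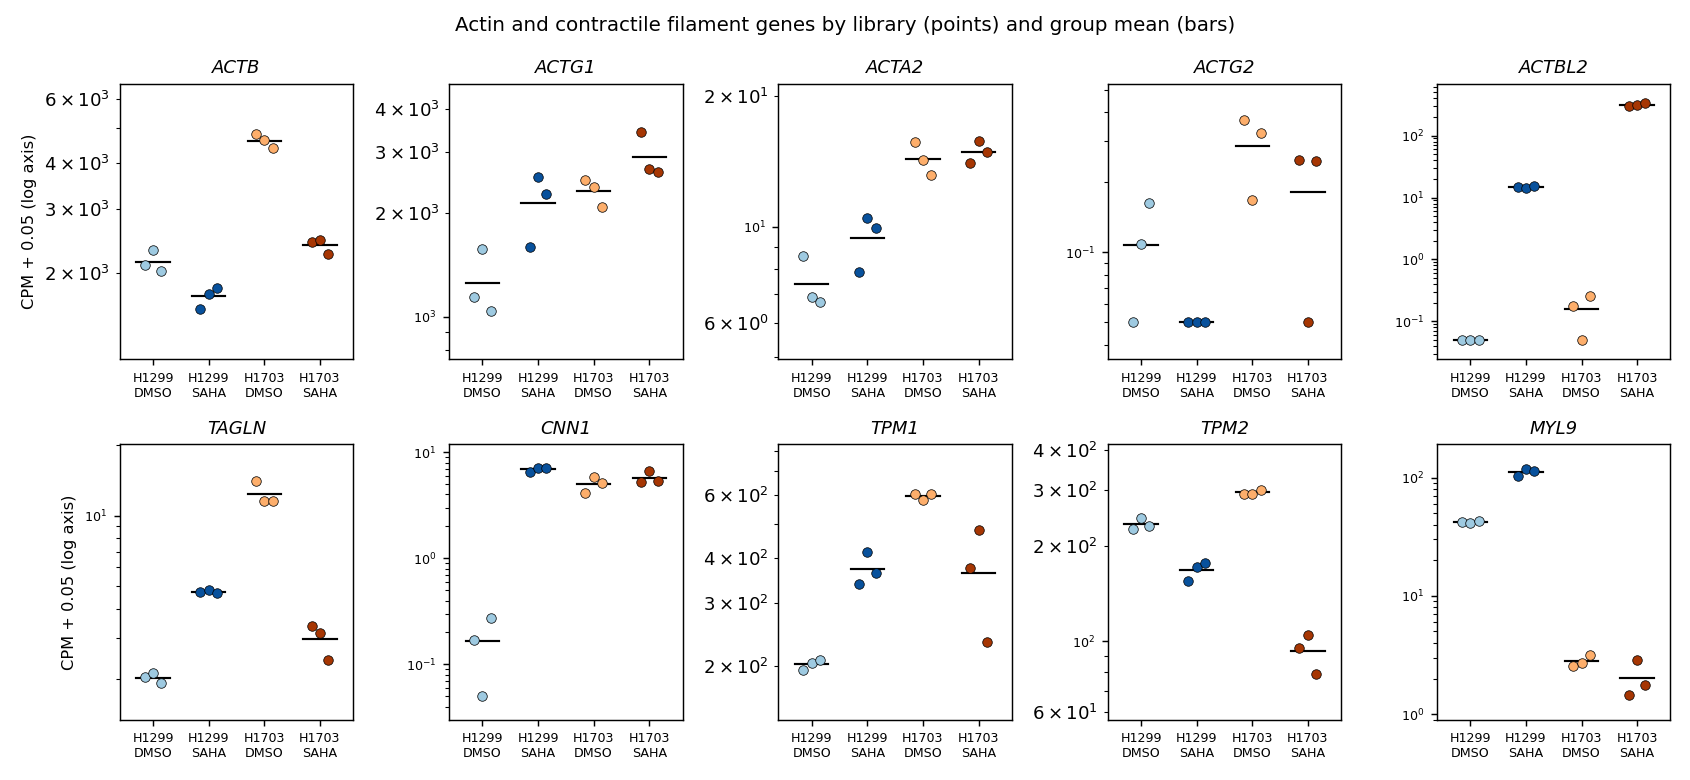
Level of each of the 10 genes in the 12 libraries, as CPM plus 0.05 on a log axis whose range differs between panels; points are libraries, bars are group means. ACTBL2 went from 0 to 5 counts in all to 316 ± 21.9 CPM in H1703 with SAHA, ACTB fell in both lines, and TAGLN moved in opposite directions in the 2 lines.

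ACTBL2 (ENSG00000169067, chromosome 5, 57480016 to 57482809 on GRCh38) was the member with the largest response. In H1299 its counts were 0, 0 and 0 under DMSO and 249, 222 and 258 with SAHA. In H1703 they were 2, 0 and 3 under DMSO and 4505, 5310 and 5198 with SAHA. Every SAHA library was far above every DMSO library in both lines. In H1299 the SAHA level of 14.7 ± 0.529 CPM was at least 83.4-fold higher than DMSO, computed against a floor of 3 counts per DMSO library (0.176 CPM). In H1703 the level went from 0.111 ± 0.104 to 316 ± 21.9 CPM, a log2 fold change of 11.46 ± 0.26 (SE, edgeR adjusted p = 9.2e-09). That change ranked 3 from the top among the 17273 genes tested in that line. ACTBL2 passed the filter on low counts only through its SAHA libraries, so a rise was largely set by the filter. The p-value and the rank are therefore a description. Because 5 DMSO counts set the lower end of the H1703 change, leaving out H1703 DMSO library 2 or 3 moved it to 10.84 or 12.17. With SAHA the H1703 level ranked 521 by CPM, not scaled to gene length, among the 30729 genes that had any count there. The difference of the SAHA effect between the lines was not called for ACTBL2 (0.54 ± 0.63, adjusted p = 0.629, interval of ±2 SE from -0.72 to 1.80); the H1299 part of it is a fitted value against libraries with 0 counts.

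The reads of ACTBL2 can be compared with its neighbours. ACTBL2 lies inside the span of an antisense gene, AC025470.2, which had 1 count in all 12 libraries. The nearest protein-coding genes with counts did not move like it. GPBP1, 215 kb away, changed by -0.40 ± 0.14 in H1299 (edgeR adjusted p = 0.0315) and 0.02 ± 0.10 in H1703 (adjusted p = 0.848). MIER3, 508 kb away, fell in both lines (-0.93 ± 0.27, adjusted p = 0.0202, and -0.77 ± 0.12, adjusted p = 2.6e-04). SETD9, 554 kb away, fell in H1299 (-0.64 ± 0.16, edgeR adjusted p = 0.00596) and did not pass in H1703 (-0.24 ± 0.20, adjusted p = 0.302). MAP3K1, 584 kb away, rose in H1299 (0.75 ± 0.13, adjusted p = 9.3e-04) and did not pass in H1703 (0.29 ± 0.15, adjusted p = 0.109). Of the protein-coding genes within 1000 kb other than ACTBL2, only PLK2, a stress-responsive kinase 971 kb away, was called higher in both lines. It rose by 2.32 ± 0.09 in H1299 (adjusted p = 1.5e-07) and 0.63 ± 0.07 in H1703 (adjusted p = 3.1e-05). Other non-coding genes in this window were not examined.

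The cytoplasmic actins moved apart from each other in both lines. ACTB (ENSG00000075624, chromosome 7, 5527151 to 5563784) had 34865, 39226 and 35888 counts in H1299 under DMSO and 26774, 27710 and 31196 with SAHA. All 3 SAHA libraries were below all 3 DMSO libraries, a fall of 0.37 ± 0.09 on the log2 scale (edgeR adjusted p = 0.00581), from 2150 ± 149 to 1726 ± 117 CPM. In H1703 ACTB had 75530, 79750 and 63968 counts under DMSO and 36640, 42361 and 34377 with SAHA. The groups were again apart, with a log2 fold change of -0.94 ± 0.07 (adjusted p = 2.3e-06), from 4619 ± 213 to 2384 ± 111 CPM. ACTB is often used as a reference transcript, and here it was not constant across treatment or line.

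ACTG1 (ENSG00000184009, chromosome 17, 81509971 to 81523847) went the other way. In H1299 its counts were 18839, 26558 and 18403 under DMSO and 26626, 40056 and 38786 with SAHA. DMSO library 2 and SAHA library 1 were nearly level in counts and in CPM (1568 and 1588), so the groups were only narrowly apart. The log2 fold change was 0.72 ± 0.22 (edgeR adjusted p = 0.0238). That call was lost without DMSO library 1 (adjusted p = 0.0752), DMSO library 3 (0.0706), SAHA library 2 (0.0751) or SAHA library 3 (0.0832), with values from 0.57 to 0.65. In H1703 the counts were 38956, 40697 and 30317 under DMSO and 51672, 46154 and 40090 with SAHA. The SAHA libraries were the higher ones in CPM, and the log2 fold change was 0.35 ± 0.12 (adjusted p = 0.0227). It was lost without DMSO library 2 (adjusted p = 0.0509), DMSO library 3 (0.0879) or SAHA library 1 (0.0805, log2 fold change 0.21), and when libraries were scaled by column totals alone (0.25, adjusted p = 0.0892).

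The ratio of the 2 cytoplasmic actins within a library does not depend on how libraries are scaled. In H1299, ACTG1 had 0.540, 0.677 and 0.513 counts per ACTB count under DMSO and 0.994, 1.45 and 1.24 with SAHA. In H1703 the ratio was 0.516, 0.510 and 0.474 under DMSO and 1.41, 1.09 and 1.17 with SAHA. The ratio was higher in every SAHA library than in any DMSO library of either line, by 2.12-fold in H1299 and 2.43-fold in H1703. An exact two-sided permutation test of 3 against 3 libraries gave p = 0.10 for each, the smallest value that this design allows, and 0.10 after adjustment over the 4 ratios tested. A ratio shows unequal change and not which of the genes moved.

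**Figure D2:**
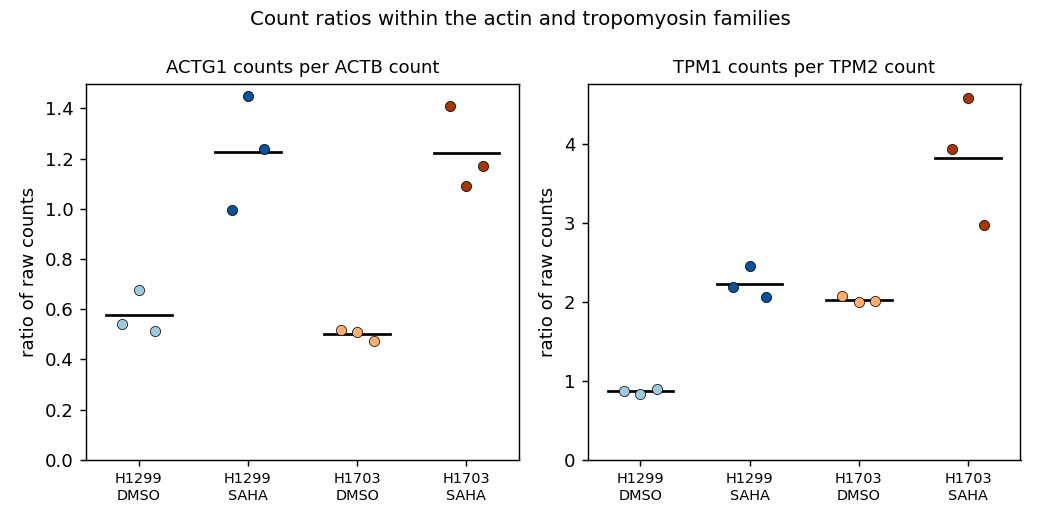
Ratio of raw counts within a library, ACTG1 to ACTB on the left and TPM1 to TPM2 on the right, from 0 on a linear axis; points are libraries and bars are group means. ACTG1 counts per ACTB count lay between 0.474 and 0.677 in the 6 DMSO libraries and between 0.994 and 1.45 in the 6 SAHA libraries.

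The muscle actins took little part in the response. ACTA2 (ENSG00000107796, chromosome 10, 88935074 to 88991339), the smooth-muscle actin also found in myofibroblasts, had 141, 116 and 118 counts in H1299 under DMSO and 131, 164 and 169 with SAHA. In H1703 it had 244, 244 and 191 counts under DMSO and 211, 270 and 226 with SAHA. The groups overlapped in both lines, and the log2 fold changes were 0.30 ± 0.17 (edgeR adjusted p = 0.147, ±2 SE from -0.04 to 0.63) and 0.07 ± 0.12 (adjusted p = 0.616, from -0.17 to 0.31). ACTA2 overlaps FAS and STAMBPL1 in the genome, and STAMBPL1 had 532 to 620 counts in H1299 under DMSO and 223 to 292 with SAHA, so reads assigned between these genes are uncertain. ACTG2 (ENSG00000163017, chromosome 2, 73892314 to 73919865), the enteric smooth-muscle actin, had 0, 1 and 2 counts in H1299 under DMSO and 0, 0 and 0 with SAHA. In H1703 it had 5, 2 and 4 counts under DMSO and 3, 0 and 3 with SAHA. A change of ACTG2 was not detectable at this depth.

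The 5 actins above, with the skeletal ACTA1 and the cardiac ACTC1, were described as shares of the summed actin level. Such shares depend on the gene length used. The authors' FPKM, which scale a count by the library total and a length of the gene, use 1 length per gene, and that length is not a transcript length: for ACTG1 it is 14148 bases, more than the 13877 bases that the gene spans, and for ACTB it is 8835 bases, against MANE Select transcripts of 1919 and 1812 bases. For ACTBL2, a gene without introns in this annotation, both are 2794 bases. By FPKM, ACTBL2 made up 17.0%, 18.9% and 21.5% of the actin level in H1703 with SAHA. Per kilobase of MANE Select transcript it made up 3.3%, 3.84% and 4.44%, and of raw counts 4.84%, 5.64% and 6.51%. In H1299 with SAHA its mean share was 1.5 ± 0.239% by FPKM and 0.258 ± 0.0465% per kilobase of transcript. ACTB went from 73.1 ± 2.83% to 55.6 ± 4.35% of the actin level by FPKM in H1299, and from 64.7 ± 3.35% to 46.3 ± 4.62% per kilobase of transcript. In H1703 its share went from 75.8 ± 0.823% to 45.5 ± 2.05% and from 67.7 ± 0.996% to 44.6 ± 2.99% on the same scales. The direction was the same on every scale. In H1703 with SAHA, ACTBL2 came after ACTB and ACTG1 and before ACTA2 on every scale, and the size of its share changed. In H1299 with SAHA it stood above ACTA2 by FPKM (1.5% against 0.714%) and below it per kilobase of transcript (0.258% against 0.335%).

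Reads of one actin could be counted for another, since the genes are alike. The coding sequences of ACTB and ACTG1 are identical at 91.2% of bases in the GENCODE annotation, and those of ACTB and ACTBL2 at 81.5%. No stretch of 100 bases in any of the 7 actin MANE Select transcripts occurs exactly in another of them. The 10 annotated ACTB pseudogenes together had 13 to 52 counts per library, and the 20 ACTG1 pseudogenes 21 to 49. The POTE genes, which carry an actin-like end, had 76 to 124 counts in H1299 libraries and 0 to 15 in H1703 libraries. Nothing in the labels or headers says how reads that fit several genes were counted.

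The calponin-family genes, TAGLN and CNN1, answered SAHA in line-specific ways. TAGLN (ENSG00000149591, chromosome 11, 117199321 to 117204782) had 33, 35 and 33 counts in H1299 under DMSO and 78, 75 and 79 with SAHA. In H1703 it had 219, 198 and 167 counts under DMSO and 50, 53 and 36 with SAHA. The groups were apart in both lines and in opposite order. TAGLN rose by 1.19 ± 0.18 on the log2 scale in H1299 (edgeR adjusted p = 3.6e-04) and changed by -2.05 ± 0.18 in H1703 (adjusted p = 5.7e-06). The SAHA levels of the 2 lines, 4.68 ± 0.0709 and 2.92 ± 0.5 CPM, were closer to each other than the DMSO levels of 1.97 ± 0.102 and 12.3 ± 1.42 CPM. The end of TAGLN overlaps PCSK7, which had 616 to 674 counts in H1299 and 498 to 541 in H1703, so at these low TAGLN counts some reads may be assigned between them.

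CNN1 (ENSG00000130176, chromosome 19, 11538717 to 11550323) had 2, 0 and 4 counts in H1299 under DMSO and 109, 111 and 121 with SAHA. Its level went from 0.116 ± 0.113 to 6.87 ± 0.321 CPM, a log2 fold change of 5.74 ± 0.43 (edgeR adjusted p = 4.6e-06). The size rests on 6 DMSO counts and moved between 5.17 and 6.60 when 1 library was left out, reaching 6.60 without DMSO library 3. CNN1 passed the filter on low counts in H1299 only through its SAHA libraries. A rise there was largely set by the filter, so the p-value is a description. In H1703 CNN1 had 64, 99 and 74 counts under DMSO and 78, 115 and 81 with SAHA, with overlapping groups and a log2 fold change of 0.22 ± 0.19 (adjusted p = 0.329, ±2 SE from -0.16 to 0.60). With SAHA, H1299 had 6.87 ± 0.321 CPM of CNN1, beside 4.98 ± 0.849 and 5.73 ± 0.823 CPM in H1703 under DMSO and SAHA.

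Of the tropomyosins, TPM2 fell in both lines and TPM1 rose in H1299. TPM1 (ENSG00000140416, chromosome 15, 63042632 to 63071915) had 3233, 3455 and 3676 counts in H1299 under DMSO and 5684, 6591 and 6235 with SAHA, all SAHA libraries being higher, with a log2 fold change of 0.83 ± 0.09 (edgeR adjusted p = 5.6e-05). In H1703 it had 9488, 10017 and 8790 counts under DMSO and 5639, 8296 and 3556 with SAHA. All 3 SAHA libraries were below the DMSO libraries, yet they spread from 233 to 481 CPM, and the log2 fold change of -0.70 ± 0.26 did not pass (adjusted p = 0.0571). It passed without SAHA library 2 (-0.96, adjusted p = 0.0101) or SAHA library 3 (-0.47, adjusted p = 0.00524), with column totals (-0.80, adjusted p = 0.0385), with DESeq2 (-0.68, adjusted p = 0.00236) and with the spread taken over all 12 libraries (-0.72, adjusted p = 0.00751). TPM1 also overlaps the antisense gene TPM1-AS, which had 8 to 69 counts per library.

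TPM2 (ENSG00000198467, chromosome 9, 35681992 to 35691020) had 3732, 4136 and 4089 counts in H1299 under DMSO and 2591, 2691 and 3029 with SAHA. In H1703 it had 4580, 5004 and 4366 counts under DMSO and 1433, 1810 and 1199 with SAHA. Groups were apart in both lines, and the log2 fold changes were -0.53 ± 0.08 (edgeR adjusted p = 3.6e-04) and -1.64 ± 0.10 (adjusted p = 7.5e-07). TPM1 counts per TPM2 count were 0.866, 0.835 and 0.899 in H1299 under DMSO and 2.19, 2.45 and 2.06 with SAHA. In H1703 they were 2.07, 2.00 and 2.01 under DMSO and 3.94, 4.58 and 2.97 with SAHA. The ratio was higher with SAHA in every library, 2.57-fold in H1299 and 1.86-fold in H1703 (exact two-sided permutation p = 0.10 each, the smallest value possible, and 0.10 adjusted over the 4 ratios).

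MYL9 (ENSG00000101335, chromosome 20, 36541484 to 36551447) had 700, 699 and 753 counts in H1299 under DMSO and 1728, 1862 and 1956 with SAHA, with no overlap. It rose by 1.36 ± 0.09 on the log2 scale (edgeR adjusted p = 1.9e-06), from 42.0 ± 0.673 to 112 ± 7.81 CPM. In H1703 it was scarce, with 39, 46 and 45 counts under DMSO and 21, 49 and 26 with SAHA. SAHA library 2 lay above all DMSO libraries in counts and the other 2 below them, and the log2 fold change of -0.44 ± 0.29 did not pass (adjusted p = 0.204, ±2 SE from -1.02 to 0.14). Without SAHA library 2 it was -0.81 and passed (adjusted p = 0.0297).

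An interaction term, taken as H1703 minus H1299 in 1 edgeR fit over all 12 libraries, tested whether SAHA acted differently in the 2 lines. For 6 of the 9 tested members the effect was lower in H1703 than in H1299, and for none was it higher; over all 19105 genes tested, 21.2% were called lower and 13.7% higher (34.9% in either direction). The called differences in log2 fold change were -5.58 ± 0.48 for CNN1 (adjusted p = 9.5e-07), -3.31 ± 0.24 for TAGLN (2.0e-07), -1.86 ± 0.25 for MYL9 (5.2e-05), -1.60 ± 0.28 for TPM1 (0.00101), -1.18 ± 0.14 for TPM2 (1.3e-05) and -0.64 ± 0.11 for ACTB (6.2e-04). The difference was not called for ACTG1 (-0.44 ± 0.27, adjusted p = 0.243, ±2 SE from -0.98 to 0.10) or ACTA2 (-0.30 ± 0.21, adjusted p = 0.295, from -0.71 to 0.11). The median over the 9 members was -1.18, and over all genes tested -0.09. The labels do not say that both lines got the same dose, so dose and line cannot be told apart here.

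**Figure D3:**
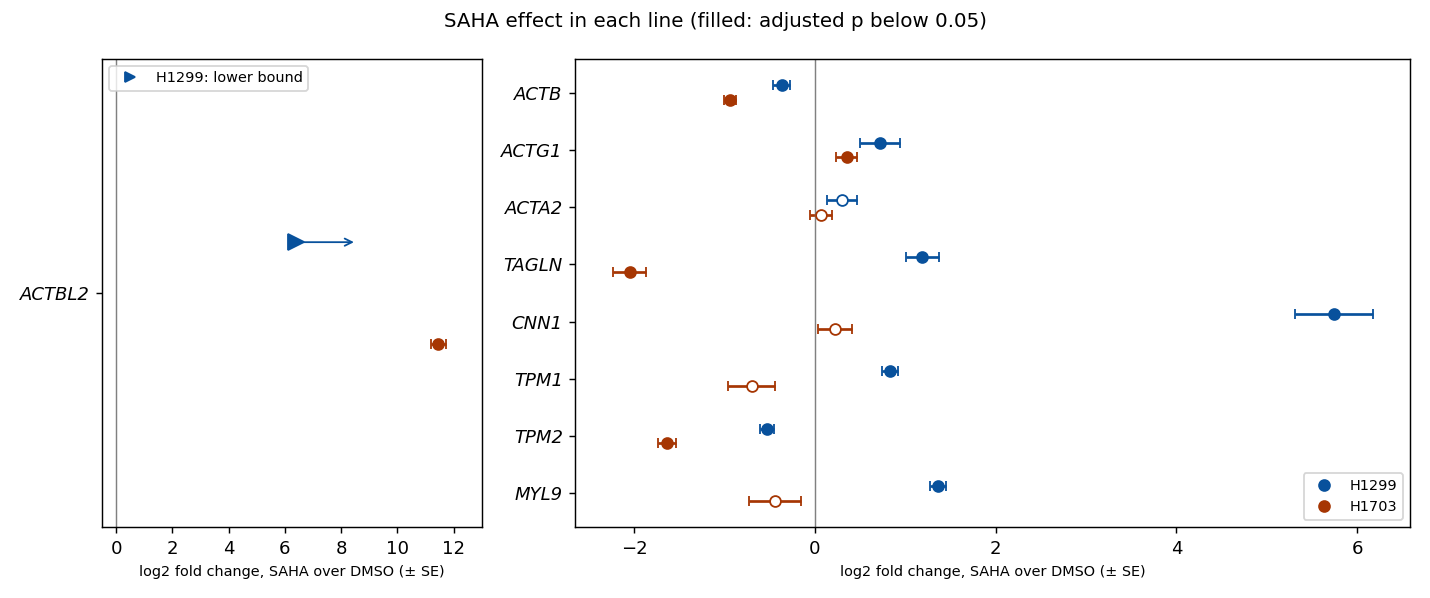
Log2 fold change of SAHA over DMSO (± SE, 3 against 3 libraries) for the 9 tested members in H1299 (blue) and H1703 (brown), with ACTBL2 on its own axis; filled circles passed at an adjusted p below 0.05. The blue triangle with an arrow is the lower bound of ACTBL2 in H1299, at least 83.4-fold. TAGLN lies on opposite sides of 0 in the 2 lines, and ACTB and TPM2 lie below 0 in both.

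Before any drug, the lines already differed in these genes. Under DMSO, 8 of the 9 tested members were called higher in H1703 and MYL9 was called lower (edgeR; background 34.3% higher, 32.2% lower and 66.5% in either direction of 19105 genes). The log2 differences, H1703 minus H1299, were 5.32 ± 0.40 for CNN1 (adjusted p = 3.5e-08), 2.64 ± 0.17 for TAGLN (8.1e-09), 1.56 ± 0.20 for TPM1 (3.0e-05), 1.10 ± 0.08 for ACTB (2.7e-08), 0.96 ± 0.15 for ACTA2 (4.8e-05), 0.89 ± 0.19 for ACTG1 (0.00154) and 0.33 ± 0.10 for TPM2 (0.00661). CNN1 moved between 4.77 and 6.21 when 1 library was left out. MYL9 was 15.3-fold lower in H1703, -3.93 ± 0.17 on the log2 scale (adjusted p = 1.0e-10). ACTBL2 is counted among the 8, but it passed the filter on low counts only through SAHA libraries, which this comparison does not use. It had 5 counts in H1703 against 0 in H1299, too few for a fold, and the groups overlapped. Its call was lost without H1703 DMSO library 3 (adjusted p = 0.0805), so the count of 8 is a description. Scaling by column totals moved the median of all genes by -0.17 on the log2 scale, and under it TPM2 was no longer called (0.14, adjusted p = 0.189). In H1703 the comparison of SAHA with DMSO moved by -0.10 under that scaling, and ACTA2 then stood at -0.03. The SAHA and line comparisons share their DMSO libraries, so their values stand side by side and are not independent.

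Levels of different genes were ordered per length. Per kilobase of MANE Select transcript, ACTB was the highest member under DMSO, at 1186 ± 82.3 CPM per kilobase in H1299 and 2549 ± 117 in H1703, followed by ACTG1 at 651 ± 146 and 1205 ± 108. With SAHA, ACTG1 stood above ACTB in H1703 (1519 ± 236 against 1316 ± 61.2, ranges apart) and overlapped it in H1299 (1111 ± 255 against 952 ± 64.4). By deposited FPKM, ACTB stayed above ACTG1 in all 4 groups, at 214 ± 9.44 against 165 ± 35.7 in H1299 with SAHA and 241 ± 12.4 against 184 ± 30.2 in H1703 with SAHA. The tropomyosins came next under DMSO in H1703 on both scales. In H1703 with SAHA, ACTBL2 ranked 3 of the members by FPKM (101 ± 6.34) and 4 per kilobase of transcript, behind TPM1 (113 ± 7.85 against 299 ± 102 CPM per kilobase). At the low end, CNN1 and TAGLN under DMSO in H1703 (3.32 ± 0.566 and 3.26 ± 0.375 CPM per kilobase) and TAGLN and MYL9 with SAHA in H1703 (0.772 ± 0.132 and 0.712 ± 0.273) overlapped. CNN1, ACTG2 and ACTBL2 could not be ordered in H1299 under DMSO.

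Close relatives of the members give the wider family. Of 11 paralogs, 8 were tested in each line. In H1299, 3 rose and 1 fell, and in H1703, 3 rose and 2 fell. Among all genes tested, 33.3% were called higher and 30.4% lower in H1299, and 34.7% and 32.6% in H1703. The light chain MYL12B, which can stand beside MYL9 in non-muscle myosin, rose in both lines, from 511 ± 19.0 to 1183 ± 158 CPM in H1299 (1.16 ± 0.11, edgeR adjusted p = 1.5e-05) and from 233 ± 5.66 to 559 ± 25.5 CPM in H1703 (1.28 ± 0.07, adjusted p = 3.0e-07). Its neighbour MYL12A rose by 0.35 ± 0.09 and 0.42 ± 0.08. The tropomyosin TPM4 fell in both lines, by 0.80 ± 0.24 (adjusted p = 0.0241, lost without DMSO library 1 or 3 or SAHA library 1 or 2, adjusted p up to 0.0737) and by 0.92 ± 0.19 (adjusted p = 0.00499). TPM3 rose in H1703 (0.58 ± 0.15, adjusted p = 0.00909) and stood at 0.01 ± 0.19 in H1299, where it became -0.27 and passed without SAHA library 3 (adjusted p = 0.0287). CNN2 rose in H1299 (0.53 ± 0.09, adjusted p = 6.5e-04) and was 0.17 ± 0.15 in H1703. TAGLN2 fell in H1703 (-0.30 ± 0.07, adjusted p = 0.00372) and was 0.41 ± 0.26 in H1299. CNN3 (-0.03 ± 0.08 and -0.03 ± 0.07) and the essential light chain MYL6 (-0.08 ± 0.09 and 0.02 ± 0.11) did not pass in either line. ACTA1, ACTC1 and TAGLN3 were too low to test.

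Among the regulators, MRTFA moved in opposite directions in the 2 lines. It rose in H1299 from 24.6 ± 1.18 to 70.9 ± 4.88 CPM (1.47 ± 0.10, edgeR adjusted p = 2.2e-06) and fell in H1703 from 122 ± 7.19 to 73.0 ± 2.12 CPM (-0.72 ± 0.08, adjusted p = 2.6e-05). The difference of its SAHA effect between the lines was -2.27 ± 0.12 (adjusted p = 8.7e-09). SRF fell slightly in both, by 0.34 ± 0.10 in H1299 (adjusted p = 0.0126) and by 0.26 ± 0.09 in H1703 (adjusted p = 0.0218). In H1703 the SRF call was lost without DMSO library 1 (adjusted p = 0.0517) or 3 (0.0603). MRTFB stood at -0.01 ± 0.34 and -0.34 ± 0.43 and did not pass. Myocardin (MYOCD), the cofactor of smooth muscle, had 0 counts in H1299 under DMSO and 5.11 ± 0.844 CPM in H1703, where it was 5.79 ± 0.661 with SAHA. Of the ternary complex factors, which share SRF with the MRTFs, ELK3 fell in H1299 (-2.05 ± 0.10, adjusted p = 5.0e-07) and ELK1 rose in H1703 (0.71 ± 0.08, adjusted p = 2.8e-05). Over the 9 genes of SRF and its cofactors, 1 rose and 3 fell of 7 tested in H1299, and 1 rose and 4 fell of 8 tested in H1703. The shares over all genes tested were 33.3% higher and 30.4% lower in H1299, and 34.7% and 32.6% in H1703.

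The other textbook SRF and MRTF targets rose and fell in both lines, as genes at large did. Of all genes tested, 33.3% were called higher and 30.4% lower in H1299, and 34.7% and 32.6% in H1703. The lists share genes, among them SRF, MYH9 and FLNA, so their counts are not separate. Of 19 tested in H1299, 7 rose and 6 fell (median -0.08), and of 20 tested in H1703, 6 rose and 8 fell (median -0.12). ANKRD1, a nuclear mechanosensitive protein, rose in H1299 from 32.6 ± 1.83 to 2158 ± 196 CPM (5.99 ± 0.12, edgeR adjusted p = 1.4e-08) and in H1703 from 3.76 ± 0.129 to 57.7 ± 4.94 CPM (3.95 ± 0.12, adjusted p = 1.2e-08). CTGF, a matricellular growth factor, rose in H1299 from 170 ± 5.93 to 2189 ± 107 CPM (3.64 ± 0.09, adjusted p = 2.5e-08) and in H1703 from 28.4 ± 0.597 to 830 ± 54.7 CPM (4.89 ± 0.09, adjusted p = 2.7e-09). TGFB1I1, a focal adhesion protein, fell in both lines (-1.77 ± 0.19, adjusted p = 4.8e-05, and -2.91 ± 0.12, adjusted p = 7.1e-08). Of myosins and genes that control contraction, 7 of 15 tested rose and 2 fell in H1299, and 6 of 14 rose and 3 fell in H1703. The small GTPase RHOB rose from 27.2 ± 2.69 to 420 ± 12.3 CPM in H1299 (3.89 ± 0.10, adjusted p = 2.5e-08) and from 134 ± 4.22 to 418 ± 31.9 CPM in H1703 (1.66 ± 0.08, adjusted p = 1.4e-07). ROCK1, a kinase that promotes actomyosin contraction, fell in both lines (-1.13 ± 0.19, adjusted p = 0.00122, and -0.97 ± 0.11, adjusted p = 3.4e-05). MYLK, which phosphorylates the myosin light chain, rose in H1299 from 11.8 ± 0.69 to 22.4 ± 2.25 CPM (0.87 ± 0.12, adjusted p = 2.1e-04) and fell in H1703 from 215 ± 8.54 to 75.4 ± 2.37 CPM (-1.49 ± 0.07, adjusted p = 1.6e-07). The difference of its SAHA effect between the lines was -2.44 ± 0.12 (edgeR adjusted p = 8.4e-09).

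Genes that turn filaments over or crosslink them were also mixed. Their counts stand beside shares over all genes of 33.3% higher and 30.4% lower in H1299, and 34.7% and 32.6% in H1703. Of 27 turnover genes tested in each line, 4 rose and 10 fell in H1299 (median -0.22), and 8 rose and 7 fell in H1703 (median -0.15). Gelsolin (GSN), which severs and caps filaments, rose in both lines (1.13 ± 0.08, edgeR adjusted p = 4.1e-06, and 1.33 ± 0.08, adjusted p = 7.8e-07). Profilin (PFN1), which feeds monomers to growing filaments, fell in H1299 from 1137 ± 86.0 to 338 ± 36.3 CPM (-1.80 ± 0.10, adjusted p = 1.2e-06) and in H1703 from 2088 ± 46.1 to 672 ± 82.0 CPM (-1.62 ± 0.09, adjusted p = 3.7e-07). The formin DIAPH3 fell in H1299 from 46.3 ± 1.22 to 23.3 ± 2.12 CPM (-1.04 ± 0.10, adjusted p = 2.2e-05) and in H1703 from 36.8 ± 3.34 to 2.82 ± 0.490 CPM (-3.69 ± 0.16, adjusted p = 7.1e-08). Of 16 crosslinkers and stress fibre scaffolds, 8 rose and 4 fell in H1299 (median 0.37), and 4 rose and 7 fell in H1703 (median -0.13). The LIM protein PDLIM1 rose in H1299 (1.66 ± 0.09, edgeR adjusted p = 8.9e-07). The bundling protein PLS3 fell in both lines (-0.84 ± 0.09, adjusted p = 3.4e-05, and -1.60 ± 0.08, adjusted p = 2.2e-07).

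**Figure D4:**
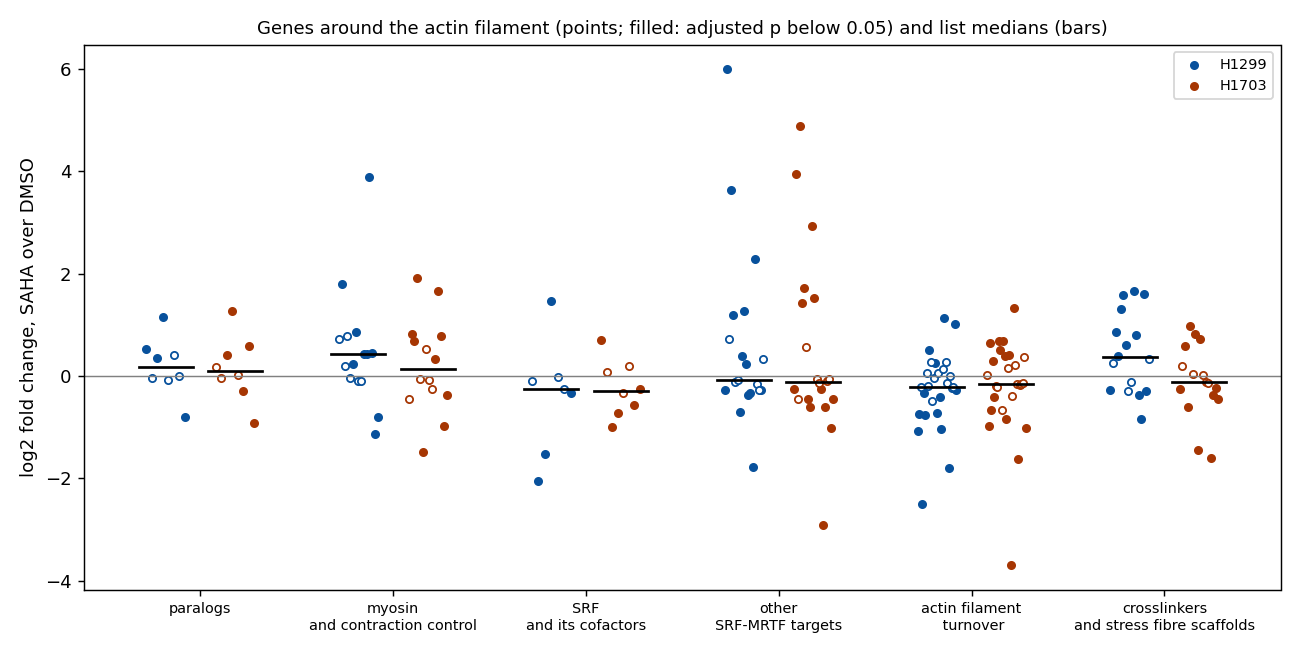
Log2 fold change of SAHA over DMSO for the genes of 6 lists around the actin filament, H1299 in blue and H1703 in brown; each point is a tested gene, filled where the adjusted p was below 0.05, and bars are list medians. Every list holds genes above and below 0 in both lines, and the medians lie between -0.30 and 0.43.

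Markers of contractile and other cell types were read beside these changes. Markers near 0 under DMSO, such as DES, passed the filter on low counts only through their SAHA libraries, so counts of markers called are a description. Over all genes tested, 33.3% were called higher and 30.4% lower in H1299, and 34.7% and 32.6% in H1703. Of 7 smooth-muscle markers outside the members, 4 were tested in H1299 (1 rose, 1 fell) and 5 in H1703 (2 rose, 1 fell). Their summed level was 92.3 to 99.3 CPM under DMSO and 93.5 to 108 with SAHA in H1299, and 186 to 195 and 88.2 to 106 in H1703. The myosin heavy chain MYH11 stayed below 1 CPM on average in every group, and PLN was at 0 counts in all groups but H1703 with SAHA (0.0438 ± 0.0758 CPM). Desmin (DES), a muscle intermediate filament gene, is named here after its values were seen. It had 0 counts in all 6 DMSO libraries, 232, 188 and 284 counts in H1299 with SAHA and 86, 115 and 96 in H1703 with SAHA, at least 80.3-fold and 32.7-fold higher against the floor of 3 counts per library. SMTN fell in H1299 (-0.60 ± 0.10, edgeR adjusted p = 8.1e-04) and SYNM in H1703 (-1.83 ± 0.09, adjusted p = 1.7e-07).

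Of 9 fibroblast markers, the 2 tested in H1299 rose and 4 of the 5 tested in H1703 rose. Their sum went from 1.54 to 2.88 CPM under DMSO to 38.4 to 51.1 CPM with SAHA in H1299, most of it COL1A1 (4.77 ± 0.24, edgeR adjusted p = 8.7e-07), and from 88.3 to 108 to 185 to 211 CPM in H1703. In H1703 COL1A1 stood at 63.4 ± 4.8 CPM under DMSO and 64.7 ± 5.52 with SAHA. LUM and THY1, named after their values were seen, went from 4.97 ± 0.476 to 51.3 ± 4.76 and from 28.6 ± 5.88 to 75.3 ± 7.98 CPM there. LUM, FAP and POSTN were at 0 counts in H1299 under DMSO. Of 7 epithelial markers, 3 of 5 tested rose in H1299, and 3 rose and 2 fell of 7 tested in H1703; their sum went from 592 to 615 to 1361 to 1584 CPM and from 3978 to 4435 to 2960 to 3421 CPM. KRT8 rose in both lines (1.53 ± 0.08, adjusted p = 7.9e-07, and 0.34 ± 0.08, adjusted p = 0.00538), and KRT7 fell in H1703 (-1.81 ± 0.10, adjusted p = 3.8e-07). KRT19 and CDH1 are named after their values were seen: in H1703 KRT19 rose from 15.9 ± 1.93 to 308 ± 31.9 CPM (4.29 ± 0.12, adjusted p = 1.0e-08) and CDH1 fell from 92.3 ± 17.2 to 32 ± 2.36 CPM (-1.51 ± 0.14, adjusted p = 1.4e-05). Of 4 endothelial markers, the 2 tested in H1299 and the 3 tested in H1703 rose, and their sum went from 1.54 to 1.81 CPM under DMSO to 15.1 to 20 CPM with SAHA in H1299 and from 0.816 to 1.15 to 7.72 to 9.98 CPM in H1703. CDH5 was at 0 counts in every H1299 DMSO library. VWF, at 0.0989 ± 0.123 CPM under DMSO in H1299 and 0.15 ± 0.0488 in H1703, passed the filter on low counts only through SAHA libraries. The same held for PDGFRB and KRT19 in H1299 and for PECAM1, KDR, LMOD1, COL3A1, DCN and LYZ in H1703. That such markers rose where tested was therefore largely set by the filter. Of 9 striated-muscle markers, 1 rose and 2 fell of 3 tested in H1299 and 1 rose of 2 tested in H1703, with sums of 5.36 to 12.4 CPM over all libraries. Of 5 haematopoietic markers, the 1 tested in H1299 fell and the 2 tested in H1703 rose, and their sum went from 20.7 to 42.4 to 17.2 to 19.8 CPM in H1299 and from 13.6 to 18.9 to 40.9 to 52.6 CPM in H1703. CD68, of the haematopoietic list, fell in H1299 (-0.88 ± 0.24, adjusted p = 0.0133, lost without SAHA library 1 at 0.0597) and rose in H1703 from 15.6 ± 2.75 to 43.4 ± 6.32 CPM (adjusted p = 1.7e-05). What part these changes of marker genes have in those of the contractile genes was not tested.

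The profile of each of 2 muscle-type members over the 12 libraries was matched to other protein-coding genes, by the root mean square difference of mean-centred log2 CPM among 10252 genes. NQO1, a quinone reductase, was nearest to TAGLN (0.25), followed by ROR1 (0.33) and ELFN2 (0.35). All 3 had their highest level in H1703 under DMSO and a higher level with SAHA than with DMSO in H1299, as TAGLN did. APTX (0.11) and ELP3 (0.13) were among the nearest to ACTA2. Likeness here is a description over 4 groups and rests on the same libraries as the values above.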

How the data were processed

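Messenger RNA was measured in 12 libraries, 3 in each of 4 groups (2 lines, DMSO or SAHA). The authors deposited raw counts per gene and FPKM values for each library, per the file headers; their FPKM values match count over column total over 1 length per gene within 1% in 100.0% of 201185 values. The build GRCh38 and the tools HISAT2 2.1.0, StringTie 1.3.3b, fastp, FastQC 0.11.9 and edgeR 3.30.3 stand in the submitters' processing notes, without their roles. The labels name both a directional kit and an un-stranded library, and no source says which strand setting the counting used, so antisense and overlapping genes are uncertain.

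The test was edgeR 4.0.16 (R 4.3.3, filterByExpr with a minimum count of 10 and a minimum total of 15, TMM scaling, robust quasi-likelihood fit) on the counts of each line alone, with the interaction and the DMSO comparison of the lines in 1 fit over 12 libraries. P-values were adjusted by Benjamini-Hochberg over all genes tested, with calls at an adjusted p below 0.05, and SE is the log2 fold change over the root of F. CPM use TMM-scaled totals. The code was tested on simulated data. Ratios were tested by exact permutation (scipy 1.17.1), and transcript lengths and coding sequences came from GENCODE 44 and promoters from RefSeq. Depth is 14.4M to 19.4M counts per library; floors of 3 counts cover counting error only, while intervals of ±2 SE come from the edgeR fit and include the spread between libraries. ACTB, TAGLN and MYL9 were matched to no promoter entry.

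Replicate numbers are tagged as a batch in the labels (Repeat1 to Repeat3), so libraries could be paired by number. The main tests left this pairing out, because the submitters' methods state no block. A fit with a replicate block is among the alternatives. Deviations of same-numbered DMSO and SAHA libraries from their group means correlated at 0.007, 0.057 and 0.003 in H1299 and -0.033, 0.005 and 0.006 in H1703. Those of different-numbered DMSO and SAHA libraries of a line correlated at -0.041 to 0.034. A batch of this kind is not described further. Every pair of replicate libraries differed by more than sampling noise, with a chi-square per degree of freedom of 10.93 to 24.7.

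The members and gene lists were chosen with earlier results of these data known. Besides the members, the text names all paralogs, SRF, MRTFA and MRTFB, and of every other list and SAHA comparison the called gene with the smallest adjusted p in each direction at a mean log2 CPM of 3 or more. A few genes that these rules take are not reported here. Alternatives were DESeq2 1.42.0 and its size factors, column totals, no filter on low counts, a replicate block, 1 fit over 12 libraries, each library left out, and, added after the data were seen, levels per kilobase of MANE Select transcript.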

Additional observations from a re-analysis of the deposited data

Results flagged for a closer look

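The SAHA effect differed between the lines, by the interaction test (edgeR quasi-likelihood, 12 libraries, H1703 minus H1299 in log2 fold change), for 6 members. The values were -0.64 for ACTB (adjusted p = 6.2e-04), -3.31 for TAGLN (2.0e-07), -5.58 for CNN1 (9.5e-07), -1.60 for TPM1 (0.00101), -1.18 for TPM2 (1.3e-05) and -1.86 for MYL9 (5.2e-05). In all 6 the H1703 effect was the lower one. For TAGLN the groups of each line were apart and in opposite order, for CNN1 the H1703 groups overlapped, and for ACTB and TPM2 the gene fell in both lines and further in H1703. No direction or call among these 6 changed in any of the 17 alternatives, in which the values ran from -6.47 (CNN1, a library left out) to -0.57 (ACTB).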

How the results depend on the processing

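Of the 9 tested members, 8 in H1299, 5 in H1703, 7 in the DMSO comparison of the lines and 8 in the interaction kept direction and side of the threshold in every alternative. The count of members higher in H1703 was 2, and 1 with column totals or with the 12-library fit; leaving out 1 library gave 1 to 2 higher and 3 to 5 lower, the 5 without SAHA replicate 2. The replicate block changed no call among members (ACTB -0.37 in H1299 and -0.94 in H1703, TPM1 -0.76 in H1703, adjusted p = 0.0648). With the block, ACTG1 stood at 0.71 ± 0.13 in H1299 (edgeR adjusted p = 0.00207) and 0.35 ± 0.08 in H1703 (adjusted p = 0.00467). Among genes not called the sign changed with the block for TPM3 (-0.03) and MRTFB (0.06) in H1299. Other sign changes, in values that did not pass as first tested, were ACTA2 in H1703 (-0.03, column totals), CNN3 in H1299 (0.04, column totals; 0.02, 12-library fit; -0.12 to 0.02 with a library left out), TPM3 in H1299 (-0.0021, no filter; -0.27 to 0.13 with a library left out, passing at -0.27 without SAHA replicate 3, adjusted p = 0.0287), MRTFB in H1299 (0.0028, DESeq2 size factors; 0.0031, DESeq2; 0.05, column totals; 0.04, 12-library fit; -0.33 to 0.25), MYL6 in H1703 (-0.09, column totals; -0.0048, no filter; -0.13 to 0.11 with a library left out, negative without SAHA replicate 2), MRTFB in H1703 (-0.76 to 0.05, positive without DMSO replicate 3) and the ACTBL2 interaction (-0.06 to 1.25, negative without H1703 DMSO replicate 2); the cause was not tested. ACTG1 in H1299 was also lost with no filter (0.71, adjusted p = 0.108), ACTG1 in H1703 with the 12-library fit (0.33, adjusted p = 0.148), TPM4 in H1299 with no filter (-0.80, adjusted p = 0.0894) and TAGLN2 in H1703 with the 12-library fit (-0.31, adjusted p = 0.185). Depth limits ACTG2 in both lines, and ACTBL2 and CNN1 under DMSO.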
